A study of Drosophila melanogaster with 15 samples.

Results

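The genes described here are those named for proteins of the cytoplasmic ribosome. They were taken as the probe sets whose platform annotation gives exactly 1 gene symbol of the form RpL or RpS with a number, or RpLP0, RpLP1 or RpLP2, with proteins of the mitochondrial ribosome left out. The rule found 40 genes, 24 of the large and 16 of the small subunit, among 11982 genes with a probe set of 1 symbol. Where several probe sets served a gene, the one with the highest mean over all arrays was used. Of the 40, 26 have a single-copy name and 14 belong to a family with duplicate copies, named by an ending such as a, b, -1, -2 or -like. The rule goes by name, so RpL7-like and RpL24-like, related to yeast assembly factors, count as members and as duplicate copies. Ribosomal protein genes whose probe sets carry no symbol or several symbols are not analysed here.

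The irradiated groups were pools of w[1118] Drosophila melanogaster embryos, a white-eyed laboratory strain, which received 500 µGy of gamma rays at 22.4 mGy/h and were frozen 5, 30, 60 or 90 min later. Control pools of w[1118] embryos were not irradiated, and all groups were frozen at an age of 3-4 h. The time since irradiation therefore cannot be told apart from the age at irradiation. Each of the 4 irradiated groups and the control group had 3 biological replicates, labelled A, B and C, and each replicate had its own Affymetrix array. A replicate pooled the embryos of several laying bottles. The arrays compare RNA of whole embryos, so fewer cells with a transcript and less of it per cell cannot be told apart.

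Ribosomal proteins are made in near-equal amounts and are assembled with ribosomal RNA in the nucleolus. In Drosophila, loss of a single copy of many of these genes gives the Minute phenotype of slow development and thin bristles. The mother loads ribosomes and the mRNAs of their proteins into the egg, and the embryo draws on that store while its own genome is switched on. Several families hold an additional copy that in Drosophila is used mainly in the ovary or testis.

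The 26 single-copy genes were among the brightest signals: each had a mean log2 intensity over the 15 arrays at or above the 99.34 percentile of all probe sets. This rank is not per array, and RpL27, the lowest, read 7452 to 28440 in irradiated arrays. Use of the brightest probe set of each gene favours high ranks. MAS5 intensities of different probe sets are not comparable as transcript levels, so each gene is set below only against itself. Of the 40 members, 14 were read by a probe set with the suffix _s_at, which the manufacturer gives to probes that match several transcripts, and 3 by one with the suffix _a_at. The members' intensities made up 6.31% ± 0.65 of an irradiated array's summed intensity (SD, n = 12), with a range of 5.33% to 7.35%. In the control arrays the share was 5.1% in A, 5.15% in B and 6.95% in C. Controls A and B had the smallest shares of all 15 arrays, and control C lay within the irradiated range.

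After the filter on dim probe sets, 11261 probe sets were tested, among them 39 of the 40 members; RpS28-like did not pass. No ribosomal protein gene was called different between irradiated and control embryos. The count was 0 of 39 at 5, 30, 60 and 90 min, averaged over the 4 irradiated groups, in the slope over time and in the test of any difference between the 5 groups (limma, Benjamini-Hochberg adjustment). Over all probe sets tested it was likewise 0, that is 0% in each comparison, so these counts do not set the members apart. At an unadjusted p under 0.05, limma gave 0 of 39 members at 5, 30 and 60 min, 1 at 90 min and 2 in the mean contrast, against 2.63%, 1.47%, 2.47%, 1.6% and 3.59% of all probe sets. The slope and the 5-group test gave 0 of 39 at that level, against 1.33% and 0.835%. All 3 arrays of a time lay above all 3 controls in 2, 0, 1 and 0 of 39 members at 5, 30, 60 and 90 min, against 5.32%, 2.36%, 4.28% and 2.78%, and below them in 0, against 2.2%, 0.506%, 1.47% and 0.755%. A test of any difference among the 4 irradiated times gave 0 of 39 members and 0 of all 11261 probe sets, with 0 members at an unadjusted p under 0.05 (limma). The comparisons with control above leave out the replicate letter, as do the SEs of irradiated-minus-control differences below. With the letter as a block, 16 of 39 members had an unadjusted p under 0.05 in the mean contrast (limma), against 14.4% of all probe sets. After adjustment 0 were called, against 0%.

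Although none passed, the fitted differences leaned one way. In the mean contrast, 37 of 39 members lay above 0, against 53.9% of all probe sets tested. The median difference of the members was 0.24 on the log2 scale, 0.22 for the large and 0.24 for the small subunit, against 0.04 over all probe sets tested. The medians at 5, 30, 60 and 90 min were 0.25, 0.17, 0.27 and 0.24, all against the same 3 control arrays. The differences of the single-copy genes ran from -0.03 to 0.27. The lean depended on the scaling: after quantile normalization the median was 0.02 and after scaling each array to its hybridization spike-in controls it was 0.03, with 26 of 39 members above 0 in both.

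**Figure D1:**
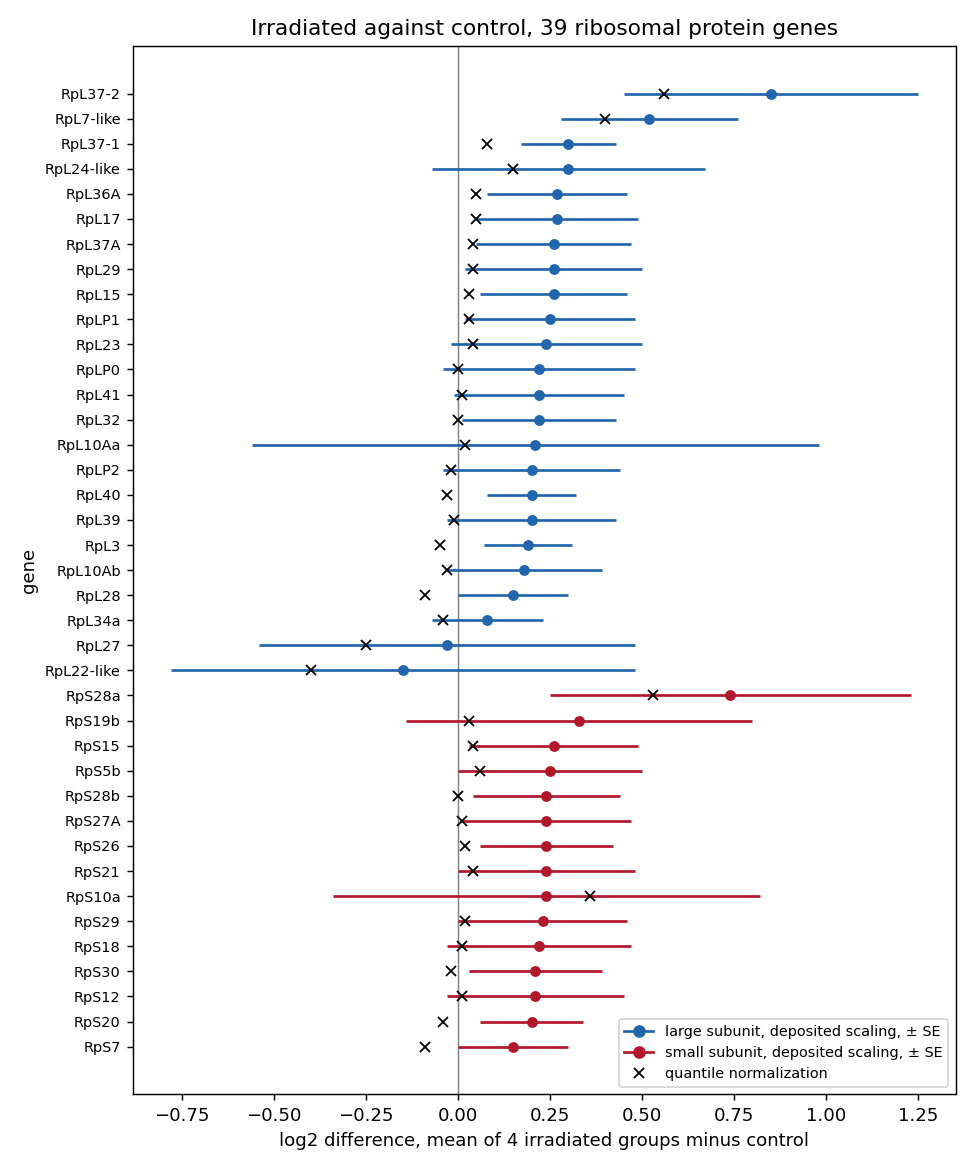
Log2 difference, average of 4 irradiated groups minus control group (horizontal axis) for each of the 39 ribosomal protein genes tested, with large-subunit genes above small-subunit genes; circles with bars give the fitted value ± SE under the deposited scaling, and crosses the value after quantile normalization. Most circles lie close to the median of 0.24 while most crosses lie close to 0.

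The lean rested on control arrays A and B. For 24 of 39 members, controls A and B were the 2 lowest of the 15 arrays, which held for 1.2% of all probe sets tested. Set against the control of the same letter, the 4 irradiated A arrays had a median member difference of 0.21, the B arrays of 0.44 and the C arrays of 0.06. Without control C the median difference over all groups was 0.47, and without control A or control B it was 0.09 and 0.14. All 8 irradiated A and B arrays exceeded their control in 31 of 39 members, against 7.56% of probe sets, while all 4 irradiated C arrays did so in 12 of 39, below the 36.5% of all probe sets. All 12 irradiated arrays exceeded the control of their letter in 10 of 39 members, against 4.24%, and lay below it in 0, against 1.89%. None of the members had all 12 irradiated arrays above all 3 controls, where the background was 0.195%, or all 12 below, where it was 0.00888%.

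Other signals moved with the members. The mean log2 intensity of the spike-in controls, transcripts added in fixed amounts, was 11.23 to 12.17 in irradiated arrays, and 11.22, 11.16 and 12 in controls A, B and C. Controls A and B, where the members were lowest, also had the lowest spike-in means of all arrays. The 31 other probe sets with a single symbol and a mean log2 intensity of at least 14 had a median irradiated-minus-control difference of 0.25, with 31 of 31 above 0. The 30 members in the same intensity range had a median of 0.23, with 29 above 0. The part of these array-wide signals in the members' difference was not tested beyond the rescaled values above.

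**Figure D2:**
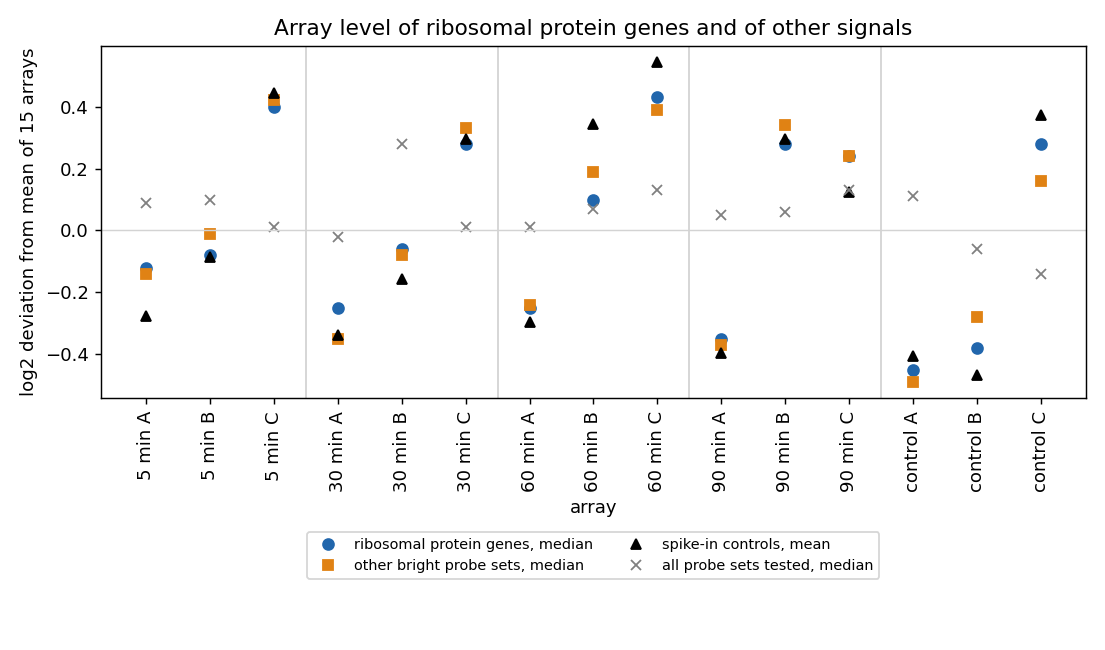
Log2 deviation of each array from the mean of the 15 arrays (vertical axis) for 4 signals, with the irradiated arrays by time and replicate letter and the control arrays at the right. The median of the ribosomal protein genes, that of 31 other bright probe sets and the spike-in mean lie low together in the A arrays and in control B and high in the C arrays, while the median of all probe sets tested stays between -0.14 and 0.28.

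Among single-copy genes, those with the smallest p in the mean contrast were RpL40, RpL3, RpS20, RpL36A and RpL15, and RpL27 was the one below 0. RpL40 encodes a ubiquitin fused to a ribosomal protein. Its intensity was 19880 at the lowest, 22680 in the median and 25030 at the highest in the irradiated arrays, against 18390, 19220 and 21510 in controls A, B and C. The groups overlapped only through control C, which lay above the lowest irradiated arrays. The log2 difference was 0.20 ± 0.12 (SE; limma adjusted p = 0.978), and -0.03 after quantile normalization. RpL3, a protein of the peptidyl transferase centre, had 22080, 25900 and 28120 as lowest, median and highest irradiated intensity, against 20480, 21070 and 25490 in controls A, B and C, and a difference of 0.19 ± 0.12 (adjusted p = 0.978). It had the same layout, with control C inside the irradiated range. RpS20, RpL36A and RpL15 differed by 0.20 ± 0.14, 0.27 ± 0.19 and 0.26 ± 0.20 (adjusted p = 0.978 each).

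The proteins of the stalk that recruits translation factors lay close to the median. RpLP0, its base, had 25350, 34240 and 49900 as lowest, median and highest intensity in irradiated arrays, against 23940, 25570 and 46980 in controls A, B and C, and its difference was 0.22 ± 0.26. RpLP1 and RpLP2, the acidic stalk proteins, differed by 0.25 ± 0.23 and 0.20 ± 0.24. For all 3, control C lay in the upper part of the irradiated range and control A below it. Control B lay below it for RpLP2 and just above its lowest array for RpLP0 and RpLP1. RpS27A, the other ubiquitin fusion, differed by 0.24 ± 0.23, and RpS30, fused to a ubiquitin-like protein, by 0.21 ± 0.18. RpS18, a protein of the small subunit's head, differed by 0.22 ± 0.25, and RpL17 of the large subunit by 0.27 ± 0.22. For all of these the adjusted p was 0.978.

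The 14 members of duplicate families divided by how far their probe set stood above the array. RpL10Ab, RpL24-like, RpL34a, RpL37-1, RpL7-like, RpS28b and RpS5b had intensities far above the median intensity of an array, which was 29.05 to 43.32. RpL10Aa, RpL22-like, RpL37-2, RpS19b, RpS28-like and RpS28a lay near or below a few times that median, and RpS10a between these sets. Dim MAS5 values are noisy. The SD over 15 arrays ran from 0.59 for RpL37-2 to 1.36 for RpS28-like in the dim set. It was 0.13 to 0.39 in the 25 single-copy genes other than RpL27, which is bright but had 0.78. These SDs also hold differences between groups and letters.

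**Figure D3:**
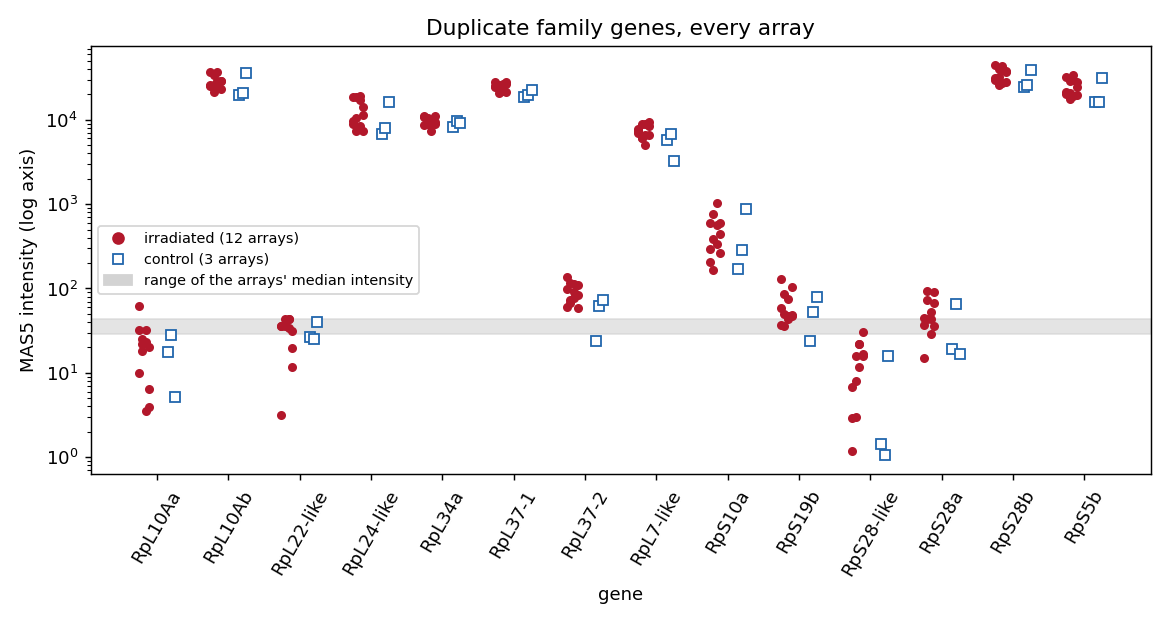
MAS5 intensity on a log axis of the 14 duplicate-family genes on every array, with the 12 irradiated arrays as circles left of the 3 control arrays as squares; the grey band spans the median intensities of the arrays, 29.05 to 43.32. Heights of different genes are not comparable as transcript levels; 3 genes have most of their points within or below the band.

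RpL37-1 and RpL37-2 are copies of a large-subunit protein, and both exceeded the control of their letter on 12 of 12 irradiated arrays. RpL37-1 had intensities in A, B and C of 24361, 25780 and 26440 (5 min), 21534, 25113 and 24570 (30 min), 22160, 26495 and 28055 (60 min) and 20676, 25878 and 27994 (90 min). The controls A, B and C read 18375, 19932 and 22414. The A arrays of 30, 60 and 90 min lay below control C, so the groups overlapped. The difference was 0.30 ± 0.13, with an unadjusted p of 0.0429 and an adjusted p of 0.978 (limma), and 0.08 after quantile normalization. RpL37-2 ran from 58.8 through a median of 87.7 to 135.4 in irradiated arrays, against 23.8, 62.7 and 73.1 in controls A, B and C. Control A stood apart below the other arrays. The difference was 0.85 ± 0.40 (adjusted p = 0.978), 0.56 after quantile normalization, and 0.36 without control A.

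RpL7-like had the other unadjusted p under 0.05 in the mean contrast. Its yeast relative is a factor of large-subunit assembly. Its intensities in A, B and C were 7417, 8821 and 5026 (5 min), 6618, 7765 and 6088 (30 min), 6685, 9398 and 6923 (60 min) and 6150, 8813 and 8427 (90 min), against 5756, 6871 and 3213 in controls A, B and C. All 12 irradiated arrays exceeded the control of their letter, and only control C lay below every irradiated array. The difference was 0.52 ± 0.24 (unadjusted p = 0.0484, adjusted p = 0.978). It stayed above 0 under the rescalings, at 0.40 after quantile normalization and 0.32 after spike-in scaling, and was 0.20 without control C.

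The RpS28 family, of a small-subunit protein, had 3 copies in the table. RpS28b ran from 26000 through 34340 to 44140 in irradiated arrays, against 24250, 25510 and 38940 in controls A, B and C, with a difference of 0.24 ± 0.20. RpS28a ran from 15.1 through 43.9 to 94.3, against 19.2, 64.6 and 16.8 in controls A, B and C. Its 3 arrays at 90 min read 94.3, 51.9 and 91, a difference of 1.43 ± 0.62 at that time (unadjusted p = 0.0361, adjusted p = 0.998), and its mean difference was 0.74 ± 0.49. These values lie near the arrays' median intensity, and control B was above most irradiated arrays. RpS28-like, which was not tested, ran from 1.19 through 13.8 to 30.7, against 1.43, 1.07 and 15.7.

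RpL10Ab and RpL10Aa, copies of a large-subunit protein, differed by 0.18 ± 0.21 and 0.21 ± 0.77. RpL10Ab ran from 21320 through 27070 to 36640 in irradiated arrays, against 19840, 20670 and 35800 in controls A, B and C. RpL10Aa ran from 3.54 through 21.2 to 62.7, against 17.8, 28.3 and 5.21, and its irradiated C arrays were above control C by 2.36 on average while its B arrays were below control B, at -1.17. RpL22-like, a relative of RpL22 that in Drosophila is abundant in the testis, was the other member below 0, at -0.15 ± 0.63, with 3.16, 35.6 and 43.8 as lowest, median and highest irradiated intensity, against 26.2, 24.9 and 40.5. At these intensities neither gene's difference can be separated from the spread between arrays.

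The remaining copies varied by letter. RpS5b, the copy used in the Drosophila ovary, ran from 17590 through 22830 to 34400 in irradiated arrays, against 16300, 16250 and 31710 in controls A, B and C, a difference of 0.25 ± 0.25. Against the control of the same letter, its mean difference was 0.25 in A, 0.53 in B and -0.04 in C. RpS19b differed by 0.33 ± 0.47 over all groups, and by letter by 0.88, -0.19 and 0.30 in A, B and C. RpS10a differed by 0.24 ± 0.58, and by letter by 0.46, 0.51 and -0.26. RpL34a and RpL24-like, which is related to a yeast assembly factor, differed by 0.08 ± 0.15 and 0.30 ± 0.37. By letter these were 0.24, 0.03 and -0.03 for RpL34a and 0.25, 0.55 and 0.08 for RpL24-like. All 5 genes were above their control in A, and RpL24-like in every letter. The adjusted p of these 5 genes lay between 0.978 and 0.995.

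The clear differences in ribosomal protein signal were between replicate letters. The sources used here do not say what the letters stand for beyond biological replicates. In a fit with group and letter, 32 of 39 members differed between C and A arrays: 31 were higher in C, against 20.8% of all probe sets tested, and 1 was lower, against 24.8% (limma adjusted p under 0.05). The higher ones were 17 of 24 large-subunit and 14 of 15 small-subunit genes, or 23 of 26 single-copy and 8 of 13 duplicate-family genes. The median C-minus-A difference was 0.67 for the members and 0.03 for all probe sets tested. All 5 C arrays exceeded all 5 A arrays in 29 members, against 17.4% of probe sets, and all lay below them in 1, against 21.4%. Against B, C was higher in 25 members and lower in 2, RpL27 and RpL7-like, against 12% and 16.4%. B was higher than A in 2, RpLP1 and RpS26, and lower in 0, against 7.4% and 7.26%. Leaving out 1 array moved the count of C against B between 5 and 31, that of B against A between 0 and 10, and that of C against A between 31 and 33. The B arrays spread widely, and the part of that spread in these counts was not tested. The count of C against B was 5 without 5 min B, 7 without control C, 11 without control B, 12 without 5 min C, and 15 without 30 min B, 30 min C or 60 min C. That of B against A was 10 without control B and 0 to 3 without any other array.

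The same array-wide signals ran along with the letters. Spike-in means were 11.75 to 12.17 in C arrays, 11.16 to 11.97 in B arrays and 11.22 to 11.35 in A arrays, and among the 31 other bright probe sets 27 were higher in C than in A, with a median difference of 0.63. After quantile normalization 10 members were higher and 9 lower in C than in A, against 24.9% and 22.6% of all probe sets, so members were then no more often higher than other probe sets. With spike-in scaling 2 were higher and 9 lower, against 4.8% and 40.1%. With each array centred on the members' own median, an alternative chosen after the data were seen, 5 were higher and 9 lower, against 6.82% and 38.6%. The 9 genes lower in C were the same under these 3 scalings: RpL27, RpL28, RpL3, RpL34a, RpL37-1, RpL40, RpL7-like, RpS20 and RpS7. Of them, RpL3, RpL37-1, RpS20 and RpS7 were called higher in C under the deposited scaling, so their direction turned with the scaling. RpL24-like and RpS10a were higher in C than in A under all 4 scalings. These calls are of the brightest probe set of each gene. Under the deposited scaling a dimmer one of RpS7 read 101.6 to 136.4 in C arrays, above its 45.55 to 75.63 in A. Dimmer ones of RpL3 read 79.65 to 217.6 and 6.53 to 52.02 in C, against 199.1 to 308.2 and 45.65 to 81.44 in A. Their C-minus-A differences under the other scalings are not given here.

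**Figure D4:**
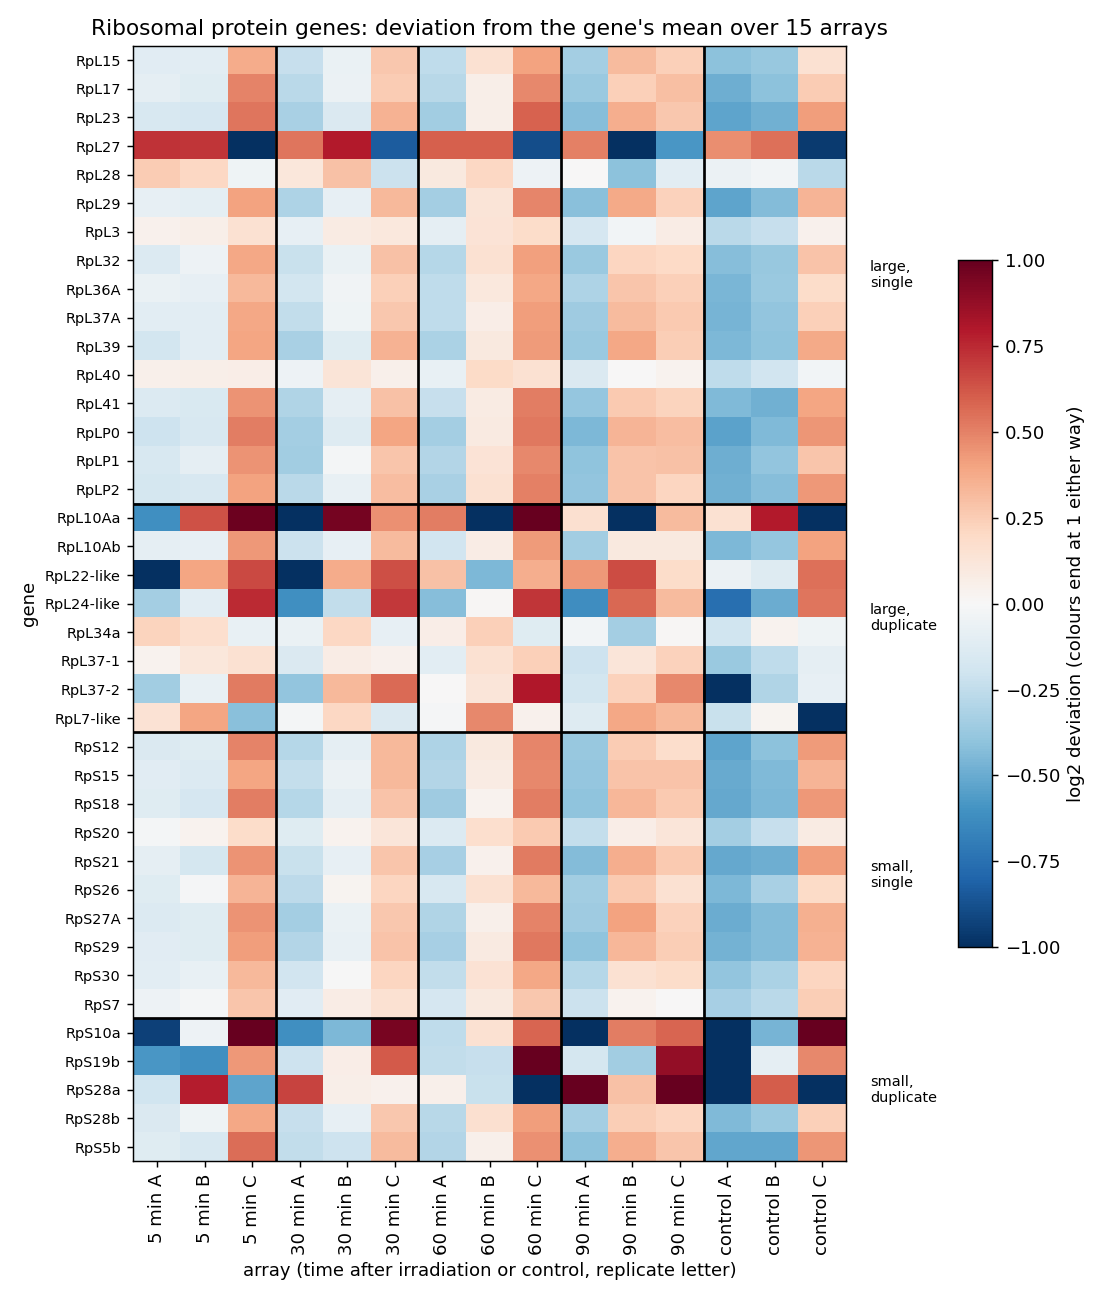
Log2 deviation of each of the 39 genes tested (rows, by subunit and by single-copy or duplicate-family name) from its own mean over the 15 arrays (columns, irradiated arrays by time and letter, control arrays at the right). Most rows are high in the C arrays and low in the A arrays and in control B; RpL27 runs the other way, and 90 min B resembles the C arrays.

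RpLP1, RpLP0 and RpL17 had the smallest p among the single-copy genes higher in C. RpLP0 intensities were 49253, 45498, 49904 and 42874 in the irradiated C arrays and 46979 in control C, against 29961, 27294, 27349, 25346 and 23943 in the matching A arrays. The letters did not overlap. The C-minus-A difference was 0.81 ± 0.11 (SE; limma adjusted p = 0.000239), and 0.15 (adjusted p = 0.00569) after quantile normalization. RpLP1 differed by 0.69 ± 0.09 (adjusted p = 0.00023) and RpL17 by 0.65 ± 0.10 (adjusted p = 0.000298), and these became 0.03 and 0.16 after quantile normalization.

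RpL27, a structural protein of the large subunit, departed from the rest. Its intensity was 7753, 9187, 8862 and 10954 in the irradiated C arrays and 8464 in control C, against 26987, 23807, 24752, 23193 and 22672 in the matching A arrays. In the B arrays it was 26873, 28435 and 24808 at 5, 30 and 60 min, 7452 at 90 min and 23963 in control B. The C arrays and 90 min B formed a low set, with no array between 10954 and 22672. The C-minus-A difference was -1.43 ± 0.27 (adjusted p = 0.00101) under the deposited scaling, -1.87 after quantile normalization and -2.04 relative to the members' median. Against B it was -1.17 ± 0.27 (adjusted p = 0.0109), and -1.56 ± 0.09 without 90 min B. Between irradiated and control arrays the difference was -0.03 ± 0.51 (adjusted p = 1), and both groups held the low and the high set.

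RpL28, RpL34a and RpL40 were also among the 9 genes called lower in C under the 3 other scalings. RpL28, another large-subunit protein, read 19454, 17258, 19322 and 18655 in irradiated C arrays and 16648 in control C, against 23840, 21641, 21387, 20085 and 19238 in A arrays, and 15046 in 90 min B. The C arrays at 5 and 60 min lay above control A, so the letters overlapped. Its C-minus-A difference was -0.22 ± 0.10 (adjusted p = 0.11), -0.70 (adjusted p = 0.000869) after quantile normalization and -0.22 ± 0.06 (adjusted p = 0.0107) without 90 min B, which was then called. RpL34a differed by -0.06 ± 0.12 (adjusted p = 0.694), and by -0.45 (adjusted p = 0.012) after quantile normalization; its lowest array was 90 min B, at 7458. RpL40 differed by 0.15 ± 0.07 (adjusted p = 0.114), and by -0.35 (adjusted p = 0.0019) after quantile normalization.

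**Figure D5:**
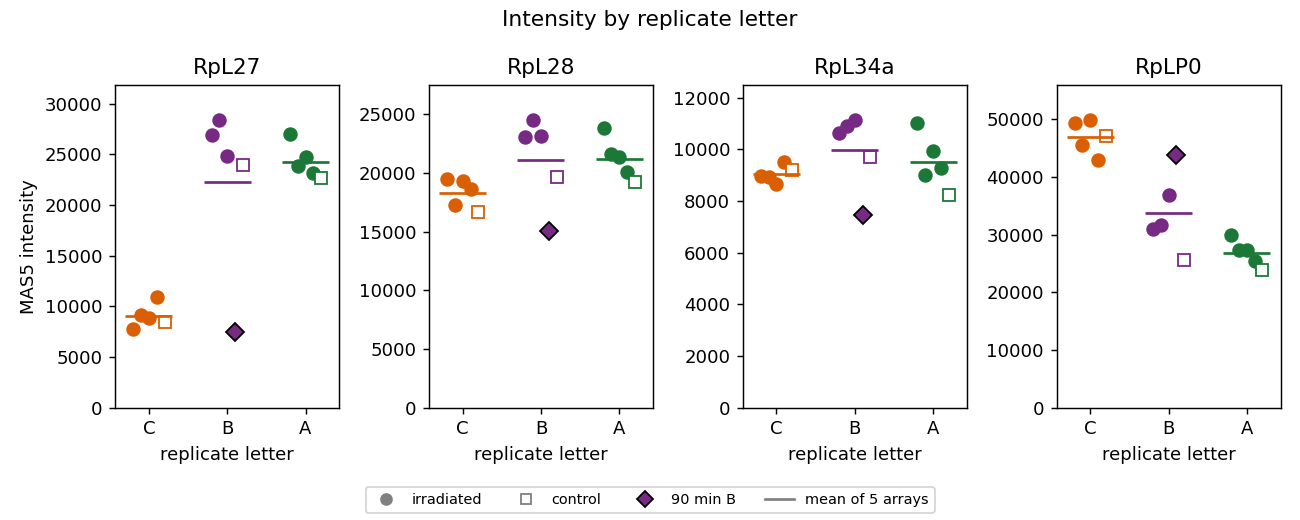
MAS5 intensity (vertical axes from 0) of RpL27, RpL28, RpL34a and RpLP0 in the 5 arrays of replicate letters C, B and A; filled circles are irradiated arrays, open squares control arrays, the diamond is 90 min B and lines are means of 5 arrays. RpL27 is 7753 to 10954 in C and 22672 to 26987 in A, with 90 min B at 7452, whereas RpLP0 is higher in C than in A.

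RpS10a and RpL24-like were those higher in C than in A under the deposited scaling and the 3 others above. RpS10a read 1035, 768.3, 595.2 and 595.6 in irradiated C arrays and 872.7 in control C, against 207.8, 260.7, 333.1, 164.6 and 168.9 in A arrays. Its C-minus-A difference was 1.78 ± 0.28 (adjusted p = 0.000391) and 2.12 after quantile normalization. RpL24-like read 14090 to 19050 in C arrays, against 6740 to 8979 in A arrays, a difference of 1.15 ± 0.16 (adjusted p = 0.000235) and 0.68 after quantile normalization. The letters did not overlap for either gene, in irradiated or control arrays. RpS19b was higher in C by 1.20 ± 0.31 (adjusted p = 0.00699) and RpL37-2 by 0.97 ± 0.28 (adjusted p = 0.0133).

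The array labelled 90 min B lay closer to the C mean than to the other letter means in 29 of 39 members and in 63.9% of all probe sets tested. Control B lay closest to A in 33 of 39 members and in 56.5% of all probe sets. The array labelled 5 min A lay closest to B in 30 of 39 members and to A in 7, whereas over all probe sets 32% lay closest to B and 49.7% to A. The labels were kept as given. Without 90 min B, 31 members were higher and 2 lower in C than in A, against 22.7% and 27.3% of probe sets, and 27 higher and 4 lower in C than in B, against 18.4% and 25.4%, and the irradiated-minus-control comparison still called 0 of 39.

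The members had a median SD over the 15 arrays of 0.34 on the log2 scale, against 0.74 for all probe sets tested. The 31 other bright probe sets had 0.37, so this spread does not set the members apart from similarly bright signals. The SD ran from 0.13 to 0.39 among the 25 single-copy genes other than RpL27. Other probe sets of a gene gave similar mean differences where they were bright: those of RpS29, a small-subunit protein, gave 0.23 and 0.22. Dimmer probe sets of RpL3 gave 0.58 ± 0.42 and 0.93 ± 0.71, while those of RpS30 and RpS7 gave 0.03 ± 0.26 and 0.22 ± 0.48, none called. A probe set of RpS29 that was too dim to be tested gave -0.17.

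No gene of ribosome biogenesis was called with irradiation either. Of 38 genes listed, among them nucleolar proteins, RNA polymerase I subunits, assembly GTPases and growth regulators, 31 were tested. In the mean contrast 20 lay above and 11 below 0, where 53.9% of all probe sets lay above. The median was 0.20, against 0.04 over all probe sets. In limma 0 were called, against 0%, and 1 had an unadjusted p under 0.05, against 3.59%, so neither count sets the list apart. That gene, NHP2, a protein of the small nucleolar particles that modify ribosomal RNA, read 4715, 6830 and 8154 as lowest, median and highest in irradiated arrays, against 3911, 5874 and 3516 in controls A, B and C, a difference of 0.60 ± 0.22 (adjusted p = 0.978). Between C and A, 11 genes of the list were called higher and 8 lower, against 20.8% and 24.8% of all probe sets.

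Marker lists for the stage and for other cells moved as follows beside these results. Of 20 maternal transcripts tested, 19 had a fitted difference below 0, where 53.9% of all probe sets lay above it, with a median of -0.63 and none called; their summed intensity was 31440 to 62280 in irradiated arrays, and 71330, 43600 and 73080 in controls A, B and C. The fitted difference was below 0 for 11 of 11 pole cell genes, with a median of -0.81, none called and sums of 20580 to 36000, against 37590, 25440 and 32580. The lists share osk, gcl, CycB, vas, aub and tud and so are not separate evidence. CycB alone read 12800 to 17640 in irradiated arrays, and 15540, 14080 and 21720 in controls A, B and C. It therefore made up a large part of the pole cell sums, which say little of the dimmer genes of that list. Of 15 zygotic patterning genes 11 lay above 0, with a median of 0.19 and none called, and their sums were 8552 to 29000, against 16730, 27730 and 5693. Between C and A, 12 of the 15 zygotic genes, 10 of the 20 maternal transcripts and 9 of the 11 pole cell genes were called lower, against 24.8% of all probe sets, and 1 maternal transcript was called higher, against 20.8%. The summed intensity of 4 late-embryo markers was 971.4 to 5027 in irradiated arrays, against 2783, 1427 and 422.9, that of 6 hemocyte and fat body markers 849.4 to 4547, against 2232, 1919 and 415.2, that of 6 adult follicle cell markers 73.8 to 476, against 144.9, 151.1 and 75.4, and that of 4 adult testis markers 11.2 to 112.1, against 40.5, 35.8 and 54.9. No marker was listed at 0 on any array, which does not show that its transcript was present. The filter on dim probe sets was passed by 4 of the 4 late-embryo markers and 5 of the 6 hemocyte and fat body markers. It was passed by 4 of the 6 follicle cell markers and 1 of the 4 testis markers. That testis marker, betaTub85D, had an irradiated median of 32.73, near the arrays' median intensity. The fitted difference was above 0 for 3 of 4 late-embryo and 5 of 5 hemocyte and fat body markers tested. Their medians were 0.71 and 0.56, and 53.9% of all probe sets lay above 0. Of the follicle cell markers tested 2 of 4 lay above 0, with a median of 0.11, and betaTub85D lay at -0.14. None was called, against 0%. Mlc1 alone read 747.1 to 4404 in irradiated arrays and made up much of the late-embryo sums. The 3'/5' intensity ratio of eIF4A, a measure of RNA integrity, was 1.93 to 2.64 in irradiated and 2.17 to 2.57 in control arrays, and that of Act5C was 2.6 to 3.84 in irradiated and 2.45 to 3.05 in control arrays. By letter the ratio of eIF4A was 2.29 to 2.64 in C, 1.93 to 2.51 in B and 1.97 to 2.54 in A. That of Act5C was 2.72 to 3.84 in C, 2.45 to 3.31 in B and 2.67 to 3.17 in A. The part of developmental stage or RNA integrity in the members' differences was not tested.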

How the data were processed

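The authors deposited array intensities on a linear scale; MAS5 made them, according to the submitters' processing notes, but its version and scaling are not given in the sources used here. The mean intensity of each array, leaving out extreme values, was 500.01 to 500.02, so the deposited scale was kept. No depth applies to arrays, and their number limits the precision. Values were transformed as log2(intensity + 1), and fold changes are on that scale, which understates changes of dim probe sets. Affymetrix control probe sets (183) were left out, and those at or above the 40th percentile of mean log2 intensity were kept. Platform annotation gave 1 symbol to 13647 of 18952 probe sets, several to 402 and none to 4903.

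limma 3.58.1 (R 4.3.3) fitted 1 linear model over the 15 arrays by lmFit, with eBayes allowing a trend in intensity; every test was two-sided, and p-values were adjusted by Benjamini-Hochberg over all 11261 probe sets tested, with a threshold of 0.05. Each time was set against control, as was the average of the irradiated groups, beside a slope per 60 min; letters C, B and A were compared in a fit with group and letter. Nothing beyond the word biological says that replicates came from separate cultures, so p-values may measure technical spread. Alternatives were a pseudocount of 16, other filters, quantile, median and spike-in scaling, no trend, all probe sets of a gene, the letter as a block and each array left out; 2 further ones were chosen after the data were seen. Correlations of same-letter deviations between control and irradiated arrays in A, B and C were 0.465, 0.402, 0.665 (5 min), 0.217, 0.375, 0.629 (30 min), 0.484, 0.266, 0.607 (60 min) and 0.501, -0.299, 0.311 (90 min). Only the value of 90 min B was below 0. Letters thus pair the arrays in part, with 90 min B as the exception, and control B lay closest to A, as given above.

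The members and lists were chosen with earlier results of these data known. Named genes are all duplicate-family members, the single-copy genes with the smallest p in the mean contrast and in C against A in each direction, the stalk and ubiquitin-fusion genes, and the brightest and dimmest members of each subunit. Other genes were named after their values were seen. The scripts were tested on simulated data with planted changes far larger than the members' median difference and with no letter effects. That test does not show whether differences of the size seen here would be found.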

Additional observations from a re-analysis of the deposited data

How the results depend on the processing

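No alternative called any ribosomal protein gene for irradiation, at any time, in the mean, in the slope or in the F test; with the replicate block (the letter) the smallest adjusted p of a member in the mean contrast was 0.118, for RpL37-1, and 16 of 39 had an unadjusted p under 0.05, against 14.4% of all probe sets. The median difference of 0.24 was 0.24 with the block, 0.02 with quantile normalization, 0.03 with spike-in scaling and 0.09 to 0.47 when 1 array was left out. The count of members called in C against A was 32, and became 19 with quantile normalization, 11 with spike-in scaling and 14 with arrays centred on the members, which was added after the data were seen. That of C against B was 27, and became 12, 4 and 12 under these settings and 4 without the intensity trend. That of B against A was 2, and became 0 under each of these, without a filter and with median centring. Leaving out 1 array gave 31 to 33, 5 to 31 and 0 to 10 in these 3 contrasts. The share of all probe sets called is given for only some of these settings, above, so these moves are not read as particular to the members. Among the genes named by the rule, mean differences that changed sign, all uncalled, were RpL10Ab -0.03, RpL34a -0.04, RpL40 -0.03, RpL3 -0.05, RpS20 -0.04, RpL28 -0.09, RpLP2 -0.02 and RpS30 -0.02 with quantile normalization, with or without the block. With spike-in scaling they were RpL10Aa 0, RpL10Ab -0.03, RpL34a -0.13, RpL40 -0.01, RpL3 -0.02, RpS20 -0.01, RpL28 -0.06, RpLP2 -0.01 and RpS30 0, and with median centring RpL27 0.03. Of the other members RpS7 was -0.09 with quantile normalization and -0.06 with spike-in scaling, and RpL39 was -0.01 with both. Leaving out 1 array gave RpL10Aa -0.43 to 0.41, RpL22-like -0.31 to 0.12, RpL27 -0.51 to 0.24, RpS10a -0.28 to 0.90 and RpS19b -0.13 to 0.70. With 90 min B and control C both left out, also added later, RpL10Aa was -0.26 and RpL22-like 0.03. The cause of these changes was not tested. Signals near the arrays' median intensity limit what can be said of RpL10Aa, RpL22-like, RpS28-like and RpS28a.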
